A study of Homo sapiens with 8 samples.

Results

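Transcript levels of 10 enzymes of carbonyl and quinone metabolism were examined in an ovarian cancer cell line with and without BRCA1. The genes were 5 aldo-keto reductases (AKR1B1, AKR1B10, AKR1C1, AKR1C2 and AKR1C3), 4 aldehyde dehydrogenases (ALDH1A1, ALDH1A2, ALDH1A3 and ALDH3A1) and the quinone reductase NQO1. They were taken by symbol from a table of 25369 named genes, and all 10 were present. RNA came from UWB1.289, an ovarian cancer line with a mutated BRCA1 (BRCA1-null), and from the UWB1.289 derivative into which BRCA1 was transduced (BRCA1+). The comparison of lines therefore rests on a single transduced derivative, and in both lines the endogenous gene is mutated. Each line was exposed for 24 h to the vehicle DMSO (control) or to 0.5 uM entinostat, an inhibitor of the histone deacetylases HDAC1 and HDAC3, and poly(A) RNA was sequenced in 2 libraries for each of the 4 groups. The sources used here do not state for the sequenced libraries whether those of a group came from separate cultures, so the p-values measure only the spread between these libraries, which may be technical.

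Aldo-keto reductases use NADPH to reduce aldehydes and ketones to alcohols. The AKR1B enzymes act on sugars, lipid aldehydes and retinaldehyde, and the AKR1C enzymes act on steroids and prostaglandins as ketosteroid reductases. Aldehyde dehydrogenases use NAD or NADP to oxidise aldehydes to acids. The ALDH1A enzymes make retinoic acid from retinaldehyde, and ALDH1A activity is widely used to mark stem-like cells in ovarian cancer. NQO1 reduces quinones. NQO1, AKR1B10 and several AKR1C genes are textbook targets of NRF2 (gene NFE2L2), a transcription factor that KEAP1 directs to degradation and that binds the antioxidant response element with a small MAF partner.

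Libraries held 31900158 to 53549893 counts, and log2 values of replicates correlated at 0.991 to 0.992 across genes, which are not independent. Levels are given as CPM, counts scaled to a library of 1000000 with effective library sizes, and 3 counts, the limit that a count of 0 allows, correspond to 0.0552 to 0.0946 CPM. This floor covers counting error only. BRCA1 itself had 98.9 and 92.3 CPM in BRCA1+ control, 133 and 118 CPM in BRCA1+ entinostat, 21.0 and 22.4 CPM in BRCA1-null control, and 17.6 and 19.2 CPM in BRCA1-null entinostat libraries, which matches the labels. Of 9 epithelial markers 8 were above the floor in every library, and the list summed to 13997 to 18433 CPM. The other, WT1, had 13 to 20 counts in BRCA1+ libraries and 1 to 6 in BRCA1-null libraries. Of 6 fibroblast markers COL3A1, DCN and LUM had 0 counts, and the list summed to 12.9 to 17.8 CPM in BRCA1+ control, 25.6 to 33.7 in BRCA1+ entinostat, 29.8 to 44.3 in BRCA1-null control and 40.9 to 59.3 in BRCA1-null entinostat libraries. The 6 leukocyte markers summed to 15.3 to 17.0, 21.6 to 23.8, 23.5 to 28.0 and 29.8 to 37.4 CPM in the same order. The 5 endothelial markers summed to 9.58 to 16.3 CPM in BRCA1+ control, 27.4 to 38.4 in BRCA1+ entinostat, 36.8 to 54.4 in BRCA1-null control and 75.4 to 93.1 in BRCA1-null entinostat libraries. The sums of these 3 lists were thus higher in BRCA1-null than in BRCA1+ cells at the same treatment and higher in entinostat than in DMSO in the same line, with an overlap of ranges for the fibroblast list in BRCA1-null cells, and their part in the results was not tested.

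A pair of reference sequences bears on how the values can be read, and both come from the GRCh37 (hg19) genome used for the table. The first shows how closely the AKR1C genes resemble each other. AKR1C1 (hg19 chr10:5005454-5020158, plus strand), AKR1C2 (chr10:5029968-5060225, minus strand) and AKR1C3 (chr10:5090958-5149878, plus strand) lie side by side. Their coding sequences all hold 969 bases without the stop codon, and AKR1C1 and AKR1C2 are identical at 98.0% of positions, with 19 differences and an identical run of 186 bases. AKR1C3 is identical to AKR1C1 at 91.4% and to AKR1C2 at 91.0% of positions, with identical runs of 112 and 171 bases. The window of 60 coding bases (positions 103 to 162 from the start codon) in which AKR1C1 and AKR1C2 differ most is printed here 5′ to 3′, with capitals at the bases that differ from AKR1C1.
AKR1C1: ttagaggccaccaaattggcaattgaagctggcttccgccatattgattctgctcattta
AKR1C2: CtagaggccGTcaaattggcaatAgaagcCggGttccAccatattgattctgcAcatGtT
AKR1C3: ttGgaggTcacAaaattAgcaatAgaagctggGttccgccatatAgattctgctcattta
AKR1C2 differed from AKR1C1 at 10 of these positions and AKR1C3 at 7. Outside such windows a read can fit AKR1C1 and AKR1C2 equally, and how the counting treated reads with several positions was not stated. The division of reads between AKR1C1 and AKR1C2 is therefore uncertain. AKR1B10 (chr7:134212344-134226166, plus strand) is identical to its neighbour AKR1B15 at 85.3% of aligned coding positions, with an identical run of 116 bases.

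The second sequence is an antioxidant response element core upstream of NQO1 (chr16:69743304-69760571, minus strand). Its letters, TGAC and then GCA after any 3 bases, were searched on both strands of the 1000 bases before each transcription start of the table. Of the 10 genes only NQO1 held it in this window, 347 bases before its start (chr16:69760894-69760933), and the core is in capitals in the sequence printed on the strand of the gene.
NQO1: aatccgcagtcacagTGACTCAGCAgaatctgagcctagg
Of the windows of all tested genes 9.16% held the motif, so that 1 of 10 is close to the share of any genes. A match in letters is a description and does not show that a factor binds there. The windows also differed in CpG content. The ratio of observed to expected CpG was 0.956 for ALDH1A3 and 0.715 for ALDH1A2, against 0.52 for AKR1B1, 0.421 for NQO1 and 0.388 for ALDH3A1. It was 0.208 for AKR1B10 and 0.168 for AKR1C2, and lay between 0.086 and 0.0908 for ALDH1A1, AKR1C1 and AKR1C3.

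Per exon length (RPKM, CPM per kilobase of exon), AKR1B1 was the most abundant of the 10 genes, with group means of 76.6 to 125 RPKM. NQO1 followed with 33.6 to 48.0 RPKM and ALDH1A3 with 2.96 to 6.59 RPKM. AKR1C3 reached 2.91 RPKM and ALDH3A1 0.803 RPKM, both in BRCA1-null cells. Group means of AKR1B10, AKR1C1, ALDH1A1 and ALDH1A2 stayed at or under 0.310 RPKM, and that of AKR1C2 at or under 0.00519 RPKM. ALDH1A3 was thus the most abundant of the 3 retinaldehyde dehydrogenases ALDH1A1, ALDH1A2 and ALDH1A3 in every group. AKR1C2 had 0 to 2 counts in a library and 5 in all 8, did not pass the filter on low counts and could not be tested. The other 9 genes passed, among which AKR1B10, AKR1C1 and ALDH1A1 had at most 21 counts in any library and passed through the groups in which they were higher, so a count over the 9 genes is a description and not support for a direction.

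**Figure D1:**
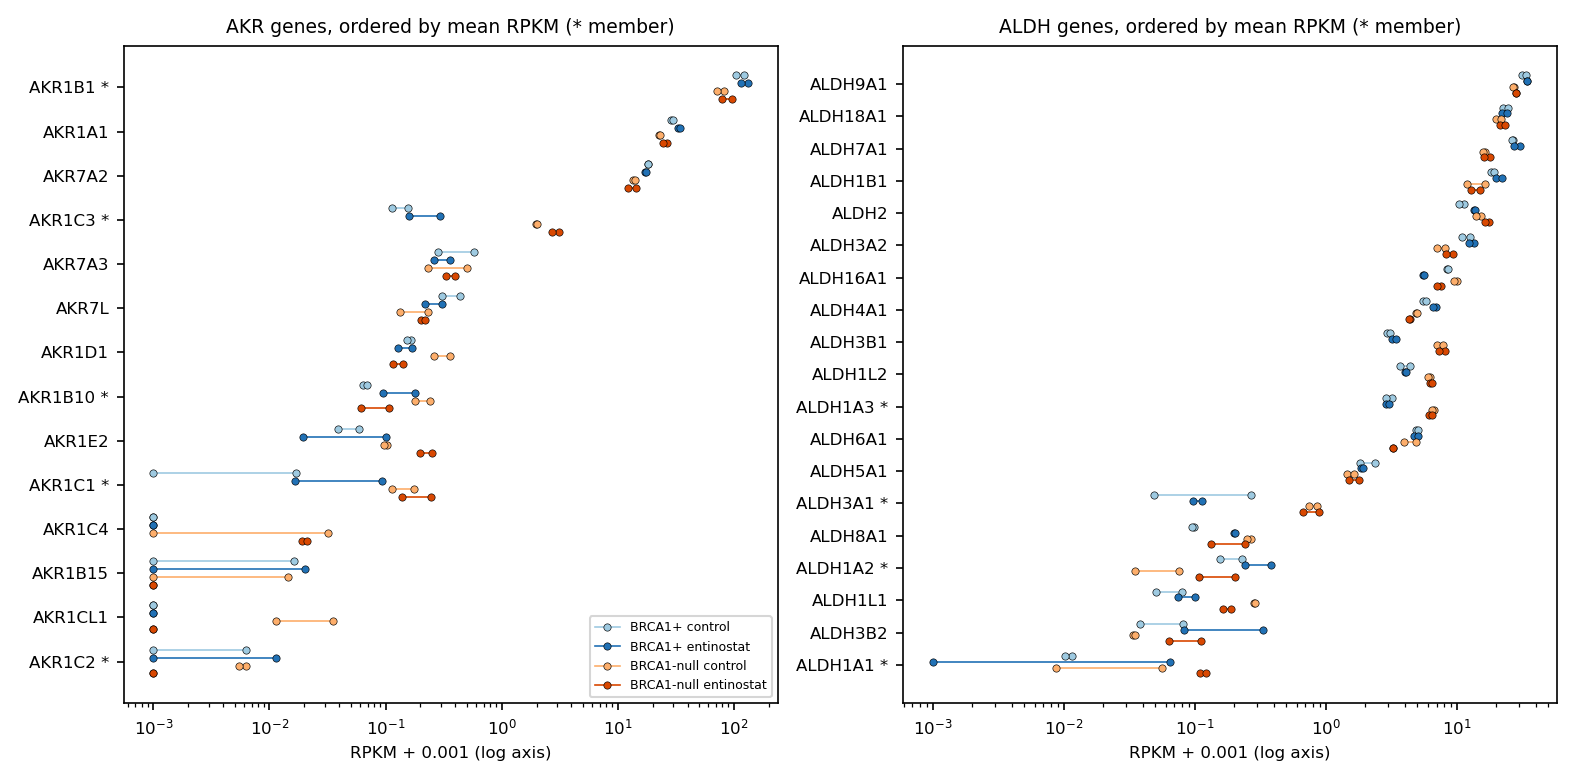
RPKM plus 0.001 on a log axis for the aldo-keto reductase genes (left) and the aldehyde dehydrogenase genes (right) of the table, with both libraries of a group joined by a line, 1 colour for each of the 4 groups and a star at the genes described here. AKR1B1 stands highest among the AKR genes at 76.6 to 125 RPKM, AKR1C3 shows a wide gap between the lines, and ALDH1A1 lies among the lowest ALDH genes shown.

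The first question was how the enzymes differ between BRCA1-null and BRCA1+ cells in DMSO. AKR1C3, ALDH3A1 and ALDH1A3 were higher in BRCA1-null cells, and AKR1C1 and AKR1B10 were higher at very low counts. AKR1B1 and NQO1 were lower, and ALDH1A2 was lower at low counts. Of the 9 tested genes 8 were called at an adjusted p under 0.05, 5 higher and 3 lower, against 42.2% of all 17714 tested genes called in either direction (edgeR quasi-likelihood test, Benjamini-Hochberg over all tested genes). The count was 5 without the first BRCA1+ control library and also 5 without the second BRCA1-null control library, and 6 by DESeq2. In a bulk sample fewer cells of a type and less RNA per cell cannot be told apart.

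AKR1C3, the type 5 17-beta-hydroxysteroid dehydrogenase and prostaglandin F synthase, had 0.225 and 0.305 CPM in BRCA1+ control libraries, from 9 and 14 counts. In BRCA1-null control libraries it had 3.91 and 3.99 CPM, from 178 and 217 counts. The groups did not overlap, and the replicates lay close together in both. The fitted difference was 3.87 ± 0.30 (log2, SE), which is 14.6-fold, with an adjusted p of 1.68e-05. AKR1C3 kept this direction in every alternative analysis, with log2 differences from 3.68 to 4.12.

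AKR1C1, a 20-alpha-hydroxysteroid dehydrogenase that inactivates progesterone, had 0 and 1 count in BRCA1+ control libraries against 7 and 13 counts in BRCA1-null control libraries. With 1 count in all in the lower group, the ratio of the library-scaled sums was 17.2 with a 95% exact counting interval of 2.75 to 713. The adjusted p was 0.0179 in edgeR, 0.0728 in DESeq2, 0.0929 without the first BRCA1+ control library and 0.0806 without the second BRCA1-null control library. Its neighbour AKR1C2, a 3-alpha-hydroxysteroid reductase, had 0 and 1 count in BRCA1+ control and 1 and 1 in BRCA1-null control libraries. When both genes were counted as 1, the log2 difference was 3.09 ± 0.93 (SE) with an adjusted p of 0.0204 in edgeR. The sum does not depend on how reads were divided between AKR1C1 and AKR1C2. It does not cover reads that also fit AKR1C3, and whether AKR1C3 reads entered the AKR1C1 or AKR1C2 counts was not tested.

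AKR1B1, the aldose reductase of the polyol pathway (chr7:134127107-134143888, minus strand), went the other way. It had 171 and 145 CPM in BRCA1+ control and 115 and 99.4 CPM in BRCA1-null control libraries. The ranges did not overlap, and the log2 difference was -0.56 ± 0.12 (SE; adjusted p = 0.00519). AKR1B10, a retinaldehyde and lipid aldehyde reductase encoded next to it, had 4 and 5 counts in BRCA1+ control and 13 and 21 in BRCA1-null control libraries, or 0.100 and 0.109 against 0.286 and 0.386 CPM. Its log2 difference was 1.67 ± 0.51 (SE; adjusted p = 0.0259). This call was lost in DESeq2 (adjusted p = 0.217), without the first (0.103) or the second (0.112) BRCA1+ control library, and without the second BRCA1-null control library (0.126). The genes AKR1B1 and AKR1B10 thus differed in opposite directions, with the AKR1B10 call resting on few reads.

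**Figure D2:**
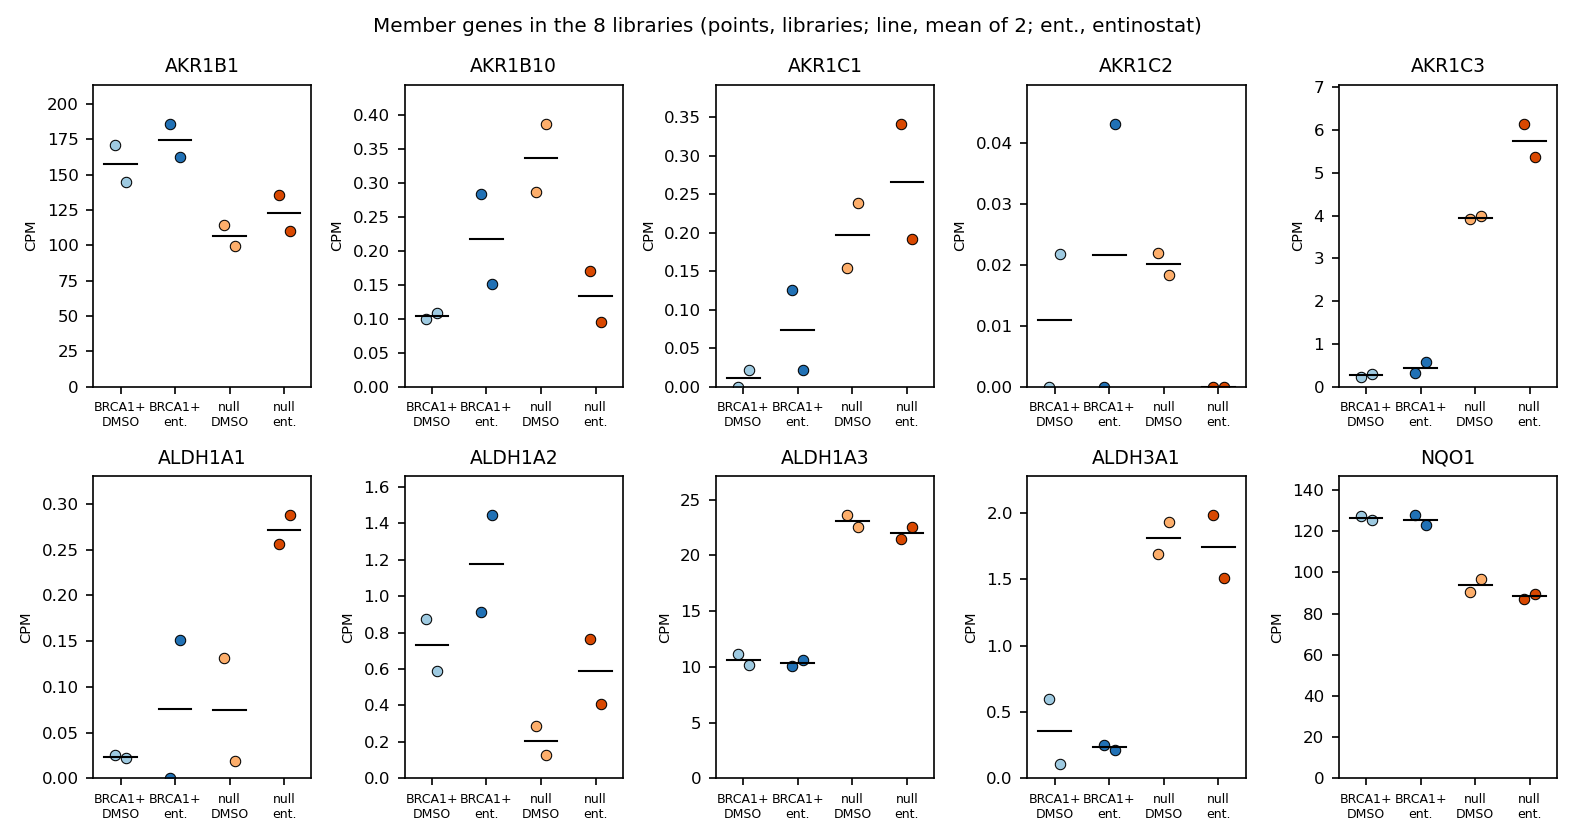
CPM of the 10 genes in each of the 8 libraries, 1 panel per gene with its own linear axis from 0, points for libraries and a bar for the mean of 2, with DMSO and entinostat (ent.) in BRCA1+ and BRCA1-null (null) cells. AKR1C3, ALDH1A3 and ALDH3A1 separate the lines upward in BRCA1-null cells and NQO1 downward, and AKR1C2 stays under 0.05 CPM.

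ALDH1A3, the retinaldehyde dehydrogenase that led its group (chr15:101420009-101456830, plus strand), had 11.1 and 10.2 CPM in BRCA1+ control and 23.6 and 22.5 CPM in BRCA1-null control libraries. The lines were apart by far more than the replicates, and the log2 difference was 1.12 ± 0.09 (SE), which is 2.17-fold, with an adjusted p of 2.25e-05. ALDH1A2 makes retinoic acid in the embryo and in several adult tissues (chr15:58245622-58358121, minus strand). It had 0.875 and 0.588 CPM in BRCA1+ control libraries, from 35 and 27 counts. In BRCA1-null control libraries it had 0.286 and 0.129 CPM, from 13 and 7 counts. Its log2 difference was -1.84 ± 0.55 (SE; adjusted p = 0.0243), so that ALDH1A2 and ALDH1A3 differed in opposite directions. The ALDH1A2 call was lost without the first BRCA1+ control library (adjusted p = 0.122) and without the second BRCA1-null control library (0.149).

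ALDH1A1, the ovarian cancer stem cell marker (chr9:75515578-75568233, minus strand), had 1 and 1 count in BRCA1+ control and 6 and 1 in BRCA1-null control libraries. A difference was not detectable at this depth, with a ratio of 3.01 (95% exact counting interval 0.573 to 29.7) and an adjusted p of 0.388. ALDH3A1, an aldehyde dehydrogenase of cornea and stomach that oxidises medium-chain and aromatic aldehydes (chr17:19641298-19651746, minus strand), had 0.600 and 0.109 CPM in BRCA1+ control, from 24 and 5 counts. In BRCA1-null control libraries it had 1.69 and 1.93 CPM, from 77 and 105 counts. Both BRCA1-null values lay above both BRCA1+ values, which themselves were far apart. The log2 difference was 2.42 ± 0.44 (SE; adjusted p = 0.00228), and it was 4.03 without the first BRCA1+ control library and 1.60 without the second.

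NQO1, which carries the element printed above, was lower in BRCA1-null cells. It had 127 and 125 CPM in BRCA1+ control and 90.5 and 97.0 CPM in BRCA1-null control libraries, with no overlap. The log2 difference was -0.43 ± 0.06 (SE), which is 1.35-fold, with an adjusted p of 4.02e-04. NQO1 therefore differed in the direction opposite to AKR1C3 in the same cells. In DMSO the fitted values of AKR1B10 and AKR1C1 also had the opposite sign to NQO1. They rested on few counts, and their calls were lost in DESeq2.

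The lines were next compared in entinostat. AKR1C3, ALDH3A1 and ALDH1A3 were again higher and AKR1B1 and NQO1 again lower in BRCA1-null cells. The libraries were other than those of the DMSO comparison, but came from the same lines and were tested in the same fit. Of the 9 tested genes 5 were called, 3 higher and 2 lower, against 39.4% of all tested genes. AKR1C3 had 0.315 and 0.582 CPM in BRCA1+ entinostat and 6.14 and 5.36 CPM in BRCA1-null entinostat libraries. Its log2 difference was 3.60 ± 0.25 (SE; adjusted p = 1.14e-05).

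ALDH3A1 had 0.252 and 0.216 CPM in BRCA1+ entinostat and 1.98 and 1.51 CPM in BRCA1-null entinostat libraries, a log2 difference of 2.92 ± 0.51 (SE; adjusted p = 0.00184). The BRCA1+ replicates, which had stood apart in DMSO, were close to each other here. ALDH1A3 had 10.1 and 10.6 CPM against 21.5 and 22.5 CPM, a log2 difference of 1.08 ± 0.09 (SE; adjusted p = 3.36e-05). NQO1 had 128 and 123 CPM in BRCA1+ entinostat and 87.3 and 89.5 CPM in BRCA1-null entinostat libraries, a log2 difference of -0.50 ± 0.06 (SE; adjusted p = 1.70e-04). The difference between lines in entinostat minus that in DMSO was -0.03 for ALDH1A3 (95% interval -0.33 to 0.26) and -0.08 for NQO1 (interval -0.26 to 0.11). AKR1B1 had 186 and 163 CPM against 136 and 111 CPM, a log2 difference of -0.50 ± 0.12 (SE; adjusted p = 0.00972). That call was lost without the first BRCA1+ entinostat library (adjusted p = 0.063) and without the second BRCA1-null entinostat library (0.0659).

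The other 4 tested genes did not pass in entinostat. AKR1C1 had 4 and 1 counts in BRCA1+ and 16 and 8 in BRCA1-null entinostat libraries, a ratio of 4.23 (95% exact counting interval 1.58 to 14.2) with an adjusted p of 0.0536. It passed without the first BRCA1+ entinostat library (adjusted p = 0.0403) and without the second BRCA1-null entinostat library (0.0478). ALDH1A2 had 0.914 and 1.44 CPM against 0.768 and 0.407 CPM, a log2 difference of -1.03 ± 0.39 (SE; adjusted p = 0.0658), which passed without the first BRCA1-null entinostat library (adjusted p = 0.0485). ALDH1A1 had 0 and 7 counts in BRCA1+ and 12 and 12 in BRCA1-null entinostat libraries, a log2 difference of 1.57 ± 0.74 (SE; adjusted p = 0.116). AKR1B10 had 9 and 7 counts against 8 and 4, and its log2 difference of -0.59 ± 0.56 (SE; adjusted p = 0.453) had the sign opposite to that in DMSO.

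**Figure D3:**
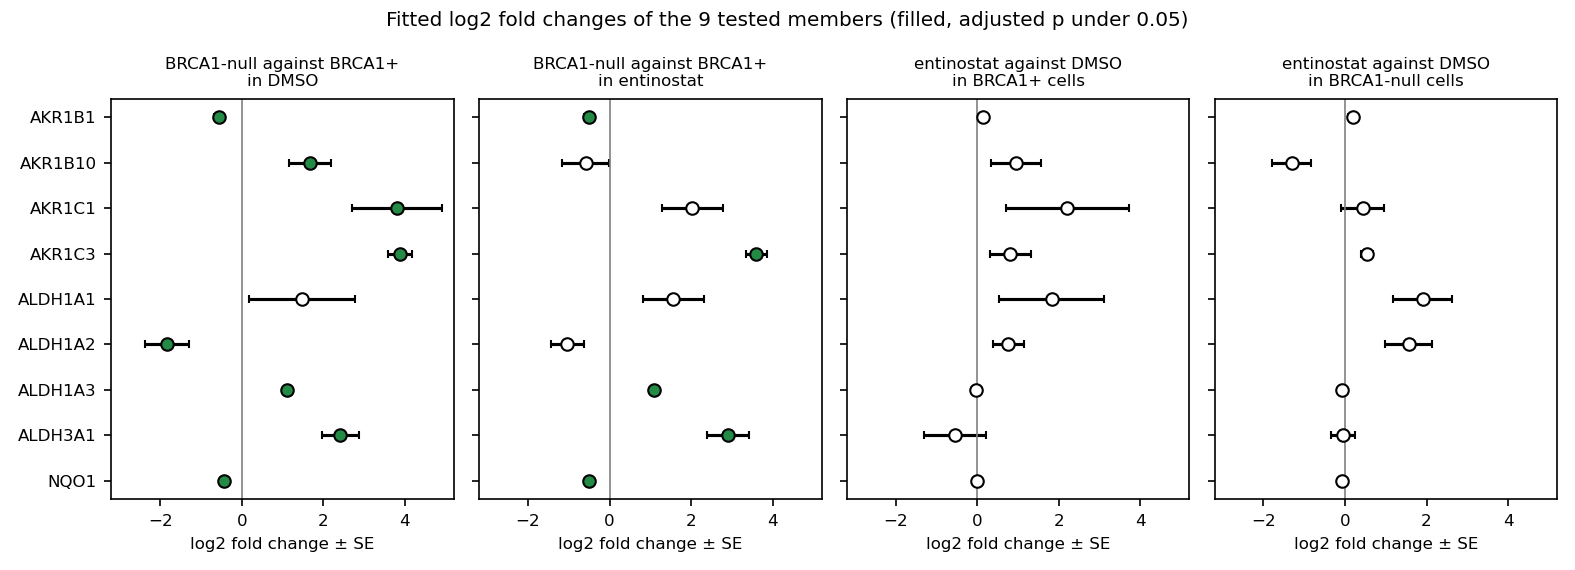
Fitted log2 fold changes with their standard errors for the 9 tested genes, 1 panel for each of the 4 comparisons, filled where the adjusted p was under 0.05. Filled points are found only in the 2 comparisons of lines, 8 in DMSO and 5 in entinostat, and the wide bars belong to the genes with few counts.

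The response to entinostat was small for the abundant enzymes and could not be resolved for the rare ones. In BRCA1+ cells 0 of the 9 tested genes were called, against 14.1% of all tested genes. In edgeR without a replicate block and in DESeq2, 0 had an unadjusted p under 0.05. With a block for the replicate number, edgeR called AKR1B1 (adjusted p = 0.0488), and 4319 of all 17714 tested genes. NQO1 changed by -0.01 on the log2 scale, with a 95% interval from -0.14 to 0.12, and ALDH1A3 by -0.03, with an interval from -0.26 to 0.20. For NQO1 the sign turned with upper-quartile scaling and with a stricter filter, and for ALDH1A3 with upper-quartile scaling. AKR1B1 changed by 0.14 (interval -0.13 to 0.41). ALDH3A1 changed by -0.55 (interval -2.27 to 1.17), and by 1.06 without the first BRCA1+ control library. The remaining values were 0.95 for AKR1B10, 0.81 for AKR1C3, 1.82 for ALDH1A1 and 0.76 for ALDH1A2, each with an adjusted p of at least 0.226. For AKR1C1, with 1 count in BRCA1+ control libraries, the ratio was 5.50 (95% exact counting interval 0.615 to 260).

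In BRCA1-null cells 0 of the 9 tested genes were called as well, against 10.8% of all tested genes. Without a replicate block 4 had an unadjusted p under 0.05 in edgeR and 1 in DESeq2. With the block edgeR called AKR1B1 (adjusted p = 0.0171) and AKR1C3 (0.0292), and 3641 of all 17714 tested genes. In the fit without the block AKR1C3 came closest, with 3.91 and 3.99 CPM in control and 6.14 and 5.36 CPM in entinostat libraries. The entinostat values lay above the control values, and the log2 change was 0.54 ± 0.15 (SE; adjusted p = 0.0513). The other genes with an unadjusted p under 0.05 were ALDH1A2, ALDH1A1 and AKR1B10. ALDH1A2 had 0.286 and 0.129 CPM in control and 0.768 and 0.407 CPM in entinostat libraries, a log2 change of 1.56 ± 0.57 (SE; adjusted p = 0.115). ALDH1A1 had 6 and 1 counts in control and 12 and 12 in entinostat libraries, a log2 change of 1.91 ± 0.73 (SE; adjusted p = 0.116). AKR1B10 had 13 and 21 counts in control and 8 and 4 in entinostat libraries, a log2 change of -1.31 ± 0.47 (SE; adjusted p = 0.111).

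The fitted changes of the abundant enzymes were small in BRCA1-null cells. NQO1 changed by -0.09 (95% interval -0.22 to 0.05), ALDH1A3 by -0.07 (interval -0.25 to 0.12) and AKR1B1 by 0.20 (interval -0.07 to 0.48). ALDH3A1 changed by -0.05 (interval -0.73 to 0.63), and by 0.05 without the second BRCA1-null control and 0.12 without the second BRCA1-null entinostat library. AKR1C1 changed by 0.43 (interval -0.76 to 1.62), and by -0.06 without the first BRCA1-null entinostat library. The test of whether the entinostat response differed between the lines called 0 of the 9 tested genes in edgeR, 0 in DESeq2, and 0% of all tested genes in edgeR. Only AKR1B10 had an unadjusted p under 0.05 for this difference (-2.26 ± 0.77, log2, SE; adjusted p = 0.967), and 9 of all tested genes were called for it by DESeq2.

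Related genes were then set beside the members, with list medians given beside those of all tested genes, which were 0.01 and 0.02 between the lines in DMSO and in entinostat and 0.00041 and 0.02 for entinostat in BRCA1+ and BRCA1-null cells. Of the calls of list genes taken by the naming rule, 20 of 28 between the lines in DMSO held in every alternative analysis, against 2 of 12 for entinostat in BRCA1+ cells (ALDH16A1 and KEAP1) and 1 of 13 in BRCA1-null cells (CRABP2). The others were lost without at least 1 library, and none of the 53 values changed sign.

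The table held 9 other aldo-keto reductase genes, and of these 6 were tested. In DMSO 1 was higher and 2 were lower in BRCA1-null cells, with a median log2 difference of -0.28. AKR1D1, the bile acid and steroid 5-beta-reductase, was higher (0.98 ± 0.32, SE). It had 18 and 19 counts in BRCA1+ control and 32 and 53 in BRCA1-null control libraries. AKR7A2, a succinic semialdehyde and aflatoxin aldehyde reductase (-0.40 ± 0.08), and AKR1A1, the general aldehyde reductase (-0.35 ± 0.07), were lower. In entinostat the same numbers were 1 higher and 2 lower, with a median of -0.30. The share called was 50% in each, against 42.2% and 39.4% of all tested genes. Entinostat changed 0 of them in BRCA1+ cells (median -0.07) and lowered AKR1D1 in BRCA1-null cells (-1.28 ± 0.33, median of the list 0.04). The shares called were 0% and 16.7%, against 14.1% and 10.8% of all tested genes. The call of AKR1D1 was lost without each of several libraries in both comparisons, with adjusted p up to 0.251 and 0.243.

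All 15 other aldehyde dehydrogenase genes were tested. In DMSO 5 were higher and 5 lower in BRCA1-null cells (median -0.18), and in entinostat 5 were higher and 6 lower (median -0.21). The shares called were 66.7% and 73.3%, against 42.2% and 39.4% of all tested genes. The higher ones included ALDH1L1, a cytosolic folate enzyme (2.16 ± 0.34), ALDH8A1 (1.42 ± 0.39) and ALDH3B1 (1.30 ± 0.10). Of these, ALDH1L1 had 11 and 8 counts in BRCA1+ control and 45 and 55 in BRCA1-null control libraries. ALDH8A1 had 10 and 11 against 31 and 35 counts. The lower ones included ALDH7A1 of lysine breakdown (-0.72 ± 0.07), the fatty aldehyde dehydrogenase ALDH3A2 (-0.63 ± 0.10) and the succinic semialdehyde dehydrogenase ALDH5A1 (-0.44 ± 0.15). In BRCA1+ cells entinostat raised the mitochondrial acetaldehyde dehydrogenase ALDH2 (0.33 ± 0.09) and lowered ALDH16A1 (-0.62 ± 0.08), with 13 not called and a median of 0.13. In BRCA1-null cells it lowered ALDH6A1 of valine breakdown (-0.45 ± 0.11) and ALDH16A1 (-0.41 ± 0.08), with a median of 0.05. The share called with entinostat was 13.3% in each line, near the 14.1% and 10.8% of all tested genes. Between the lines the calls of ALDH8A1 and ALDH5A1 were lost without some of the libraries (adjusted p up to 0.0961 and 0.326), and with 1 setting changed the list held 4 to 6 higher and 3 to 7 lower genes in DMSO.

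The regulators of NRF2 were examined beside NQO1 and the AKR genes. NFE2L2, which encodes NRF2, had 136 and 131 CPM in BRCA1+ control and 122 and 105 CPM in BRCA1-null control libraries, a log2 difference of -0.23 ± 0.08 (SE; adjusted p = 0.0503). Of 10 regulators 4 were higher and 0 lower in BRCA1-null cells in DMSO, and likewise 4 and 0 in entinostat (medians -0.04 and -0.02). The share called was 40% in each, close to the 42.2% and 39.4% of all tested genes. With 1 setting changed the numbers in DMSO were 2 to 4 higher and 0 to 3 lower. The higher ones in DMSO included the small MAF genes MAFF (0.97 ± 0.20) and MAFK (0.66 ± 0.10) and the repressor BACH1 (0.51 ± 0.14). MAFG, also a small MAF gene, was not among them. It had 71.5 and 50.5 CPM in BRCA1+ control and 63.5 and 49.1 CPM in BRCA1-null control libraries. KEAP1 had 142 and 143 CPM in BRCA1+ control and 141 and 133 CPM in BRCA1-null control libraries, a log2 difference of -0.05 ± 0.06 (SE; adjusted p = 0.487). Entinostat lowered KEAP1 in BRCA1+ cells to 108 and 110 CPM (-0.39 ± 0.06; adjusted p = 0.00447), the only call of the list there (median -0.10). In BRCA1-null cells it lowered KEAP1 to 115 and 108 CPM (-0.30 ± 0.06, adjusted p = 0.0148). The adaptor SQSTM1 fell there as well (-0.31 ± 0.08, adjusted p = 0.0446), and the list median was -0.03. The shares called with entinostat were 10% in BRCA1+ and 20% in BRCA1-null cells, against 14.1% and 10.8% of all tested genes. The BACH1 call was lost without the first BRCA1+ control or the first BRCA1-null control library (adjusted p up to 0.0784), that of KEAP1 in BRCA1-null cells without the first control or the second entinostat library (0.0768), and that of SQSTM1 without each of several libraries (0.158).

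Of 24 further NRF2 target genes, all tested, 1 was higher and 9 were lower in BRCA1-null cells in DMSO. In entinostat the numbers were again 1 and 9, with 41.7% called against 39.4% of all tested genes. The medians were -0.26 in DMSO and -0.21 in entinostat. The share called in DMSO was 41.7%, close to that of all tested genes, and 7 to 14 were lower when 1 setting was changed. The cystine transporter SLC7A11 was higher (0.41 ± 0.10). The lower ones included the peroxiredoxin PRDX1 (-0.60 ± 0.05) and the epoxide hydrolase EPHX1 (-0.55 ± 0.14). The glutathione synthesis subunit GCLM differed by -0.38 ± 0.14 (adjusted p = 0.057) and the thioredoxin reductase TXNRD1 by -0.06 ± 0.06 (adjusted p = 0.458). The calls of SLC7A11 and EPHX1 were lost without the first BRCA1+ control or the second BRCA1-null control library (adjusted p up to 0.0633 and 0.0802).

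With entinostat 1 of these targets rose and 2 fell in BRCA1+ cells (median -0.01). In BRCA1-null cells 2 rose and 1 fell (median 0.02). The share called was 12.5% in each line, near the 14.1% and 10.8% of all tested genes. The haem oxygenase HMOX1 had 3.30 and 3.27 CPM in BRCA1+ control and 6.65 and 5.97 CPM in BRCA1+ entinostat libraries (0.93 ± 0.17; adjusted p = 0.00813). In BRCA1-null cells it went from 4.0 and 3.66 CPM to 7.29 and 5.87 CPM (0.79 ± 0.15; adjusted p = 0.0147). HMOX1 rose in both lines, and OSGIN1, an oxidative stress growth inhibitor, fell in both (-0.87 ± 0.21 in BRCA1+ and -0.87 ± 0.22 in BRCA1-null cells). PGD of the pentose phosphate pathway fell in BRCA1+ cells (-0.22 ± 0.06), and the carbonyl reductase CBR3 rose in BRCA1-null cells (0.70 ± 0.19). GCLM changed by -0.20 ± 0.14 and -0.23 ± 0.14 and TXNRD1 by 0.09 ± 0.06 and 0.18 ± 0.06 in BRCA1+ and BRCA1-null cells, and neither passed the test. The HMOX1 call was lost without the first entinostat or the second control library of BRCA1+ cells (adjusted p up to 0.0562) and without the first entinostat or the second control library of BRCA1-null cells (0.101).

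The retinoid pathway, in which the ALDH1A enzymes act, held 22 listed genes of which 16 were tested. The receptor gene RXRB was placed by the table on a haplotype contig of chromosome 6 with 0 counts in all libraries, so it could not be measured. In DMSO 4 genes were higher and 3 lower in BRCA1-null cells (median 0.12), and in entinostat 3 and 3 (median 0.34). The shares called were 43.8% and 37.5%, close to the 42.2% and 39.4% of all tested genes. The nuclear receptors RXRA (1.41 ± 0.09) and RARA (0.75 ± 0.09) and the retinol esterifying enzyme LRAT (0.78 ± 0.25) were higher. The retinoic acid carrier CRABP1 (-1.60 ± 0.53) and the retinal reductase RDH11 (-0.42 ± 0.08) were among the lower ones. CRABP1 had 12 and 12 counts in BRCA1+ control and 3 and 6 in BRCA1-null control libraries. The calls of LRAT and CRABP1 were lost without some of the libraries (adjusted p up to 0.195 and 0.141).

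Entinostat raised 4 retinoid genes and lowered 0 in BRCA1+ cells (median 0.09), and raised 2 and lowered 0 in BRCA1-null cells (median 0.24). The shares called were 25% and 12.5%, against 14.1% and 10.8% of all tested genes. CRABP2, which carries retinoic acid to its receptors, had 0.925 and 1.26 CPM in BRCA1+ control and 4.48 and 7.05 CPM in BRCA1+ entinostat libraries (2.42 ± 0.40; adjusted p = 0.00624). In BRCA1-null cells CRABP2 went from 2.29 and 2.24 CPM to 13.1 and 7.78 CPM (2.22 ± 0.30; adjusted p = 0.00376). The receptor RARG rose in both lines (0.61 ± 0.17 and 0.67 ± 0.17). CRABP1 rose in BRCA1+ cells (1.67 ± 0.33) from 12 and 12 counts to 28 and 42. Without the second BRCA1+ entinostat library 0 retinoid genes were called in BRCA1+ cells, and the adjusted p of CRABP2 was 0.0657. ALDH1A3 itself changed by less than its standard error in both lines.

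Of 22 other enzymes of steroid and prostaglandin metabolism, the pathways in which AKR1C3 acts, 20 were tested. HSD17B8 was placed on a chromosome 6 haplotype contig with 0 counts and could not be measured. In DMSO 5 were higher and 6 lower in BRCA1-null cells (median 0.06), and in entinostat 5 and 4 (median 0.09). The shares called were 55% and 45%, against 42.2% and 39.4% of all tested genes. The prostaglandin E synthase PTGES had 1.70 and 1.24 CPM in BRCA1+ control and 7.91 and 7.58 CPM in BRCA1-null control libraries (2.41 ± 0.18; adjusted p = 1.51e-05). The prostacyclin synthase PTGIS (1.54 ± 0.29) and HSD17B11 (0.59 ± 0.11) were also higher. The oestradiol-oxidising HSD17B14 (-1.39 ± 0.30), the peroxisomal HSD17B4 (-0.84 ± 0.06) and the prostaglandin reductase PTGR1 (-0.47 ± 0.06) were lower.

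Entinostat raised 4 of these enzymes and lowered 0 in BRCA1+ cells (median 0.19). In BRCA1-null cells it raised 6 and lowered 0 (median 0.14). The shares called were 20% and 30%, against 14.1% and 10.8% of all tested genes. HSD17B6 rose in both lines (1.26 ± 0.31 and 1.20 ± 0.27), as did HSD17B14 (1.09 ± 0.22 and 1.43 ± 0.29). HSD17B11 rose by 0.67 ± 0.11 in BRCA1+ cells. The inducible cyclooxygenase PTGS2 rose in BRCA1-null cells (1.67 ± 0.36), from 17 and 15 counts to 56 and 35. A fit on only the BRCA1-null groups called 0 of these enzymes.

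**Figure D4:**
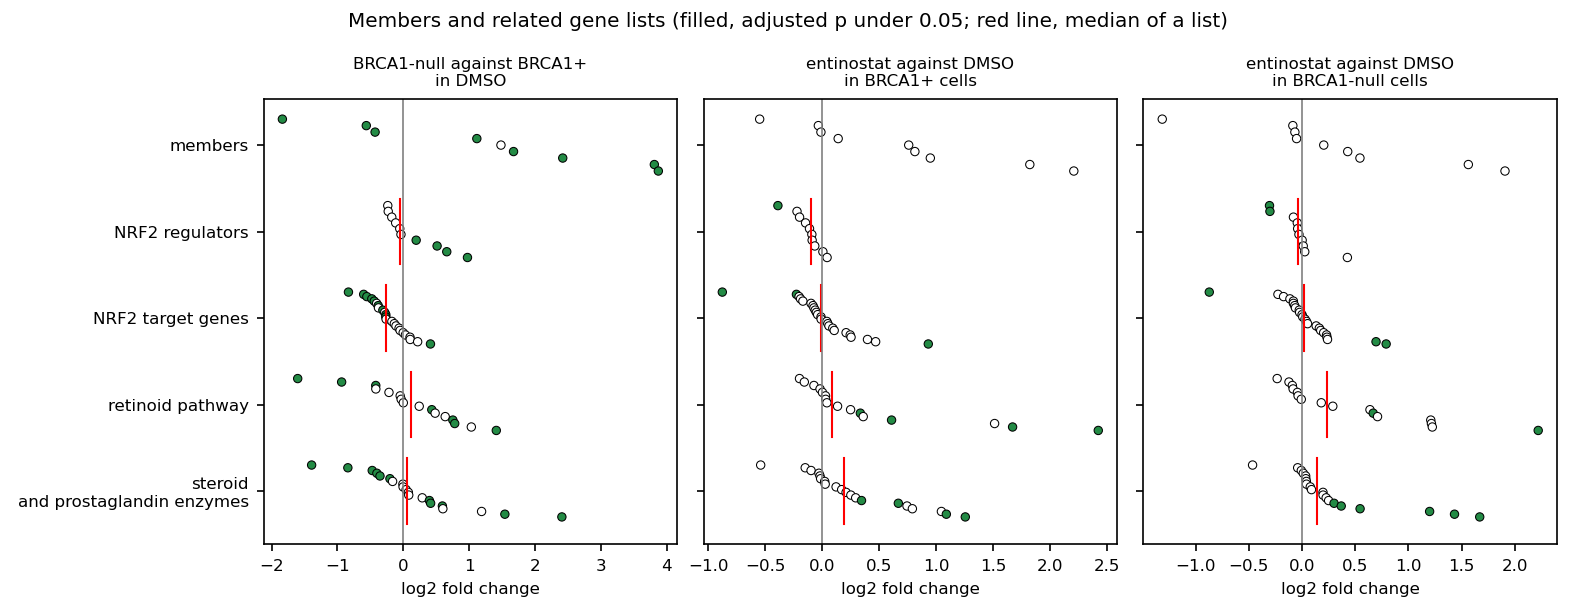
Log2 fold changes of the 9 tested members and of the tested genes of 4 related lists, 1 point per gene, for BRCA1-null against BRCA1+ cells in DMSO (left) and for entinostat in BRCA1+ (middle) and BRCA1-null cells (right), filled where the adjusted p was under 0.05, with a red line at the median of each list. The NRF2 target genes lie mostly left of 0 between the lines (median -0.26), and the entinostat panels hold filled points in the lists but 0 among the members.

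The members were also ordered by likeness of their log2 CPM over the 8 libraries (Pearson's r, as a description, since libraries share a line and a treatment and fall into 4 groups). Among the members AKR1C3 was most like ALDH1A3 (r = 0.968) and least like NQO1 (r = -0.986), and ALDH3A1 was most like ALDH1A3 (r = 0.941). AKR1B1 was most like ALDH1A2 (r = 0.886). The values that follow are the highest for each member among 4241 or 4242 genes compared, so they are high by choice. Among the other tested genes with an SD of at least 0.5, AKR1C3 was most like MUC20 (0.998) and MYOM3 (0.996), ALDH1A3 like EFEMP1 (0.998) and ZMAT1 (0.997), and ALDH3A1 like RFPL2 (0.993) and DKK2 (0.988). NQO1 was most like UBASH3B (0.999) and LOC101928266 (0.996), AKR1B1 like SMAD6 (0.984) and GBP1 (0.983), and ALDH1A2 like IL10RA (0.974) and LRRC32 (0.971). For the genes with few counts the values were 0.976 (SLC26A7) and 0.975 (CAPN6) for AKR1C1, 0.946 (PLA2G4E) and 0.938 (HIPK1-AS1) for AKR1B10, and 0.937 (FRZB) and 0.930 (ENOX1-AS2) for ALDH1A1.

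The genes around each member were compared with it between the lines in DMSO, a choice made after seeing the data. Over up to 25 tested genes on each side, the median log2 difference was 0.37 for ALDH1A3 (34 genes) and 0.26 for ALDH1A1 (50 genes), against 1.12 for ALDH1A3 itself. It was 0.03 for AKR1B1 and AKR1B10, which share their neighbours, -0.06 for AKR1C3, -0.04 for ALDH1A2, 0.01 for ALDH3A1 and -0.01 for NQO1. The DNA copy number of these regions was not examined.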

How the data were processed

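Poly(A) RNA of 8 libraries was measured. The values were raw read counts per gene symbol, which the authors deposited as 1 table after aligning reads to hg19 with TopHat 2 and counting with NGSUtils. Treatment of strand and of reads with several positions was not given in the sources used here. The table held no columns of other samples, and 1 entry without a name had 0 counts. Groups came from the sample titles. CPM and RPKM were computed from the counts with effective library sizes and the exon lengths of the table.

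Genes were kept by filterByExpr (17714) and tested with edgeR 4.0.16 in R 4.3.3: TMM factors, 1 quasi-likelihood fit over the 8 libraries with a mean per group (legacy set to FALSE, 4 residual degrees of freedom), two-sided tests, and Benjamini-Hochberg adjustment over all tested genes at 0.05. The script was tested on simulated data. Results were recomputed with upper-quartile factors, the size factors of DESeq2, without a filter, with a stricter filter (a mean of 10 counts and 1 CPM in 2 libraries), with the DESeq2 1.42.0 Wald test, a replicate block, fits on the groups compared, a log2 limit of 1, and omission of each library. Where omission left 1 library in a group, it was assumed to vary like the other groups. Applying these settings to the list genes was chosen after seeing the data. Intervals cover 95%. Intervals of count ratios are exact and cover counting error only.

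The members and lists were chosen with earlier results of these data known, and the lists were compiled from general knowledge. From each list at most 3 genes per direction and comparison were named, the called genes with the largest log2 differences between lines in DMSO or with entinostat, and NFE2L2, KEAP1, GCLM, TXNRD1 and HMOX1 in any case. The values of 2 genes that this rule names are not reported here. RXRB, HSD17B8 and MAFG were named after their values were seen. The 2 genes most like a member were taken from genes with an SD of log2 CPM of at least 0.5. Sequences were read from GRCh37, with the MANE Select transcripts of GENCODE for coding sequence.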

Additional observations from a re-analysis of the deposited data

Results flagged for a closer look

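The AKR1B10 values of entinostat and control libraries differed in opposite directions in the 2 lines, and neither difference passed the test (log2 0.95, adjusted p = 0.346 in BRCA1+ cells and -1.31, adjusted p = 0.111 in BRCA1-null cells, edgeR). All libraries of the treated group lay above the control libraries in BRCA1+ cells (9 and 7 counts against 4 and 5) and below them in BRCA1-null cells (8 and 4 against 13 and 21). The test of the difference gave -2.26 ± 0.771 (log2, SE) with an adjusted p of 0.967 over all tested genes in edgeR, so it did not pass. Groups of 2 libraries are too small to look for single libraries that stand apart.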

How the results depend on the processing

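Counts of members called kept within 1.5 times of their value in most settings. In DMSO between the lines the count of 8 went to 5 under the stricter filter, which left 5 members to test, and ranged from 5 to 8 with 1 library omitted. In entinostat the count of 5 went to 3 with a log2 limit of 1. With the replicate block the entinostat count of 0 became 1 for BRCA1+ cells (AKR1B1, adjusted p = 0.0488) and 2 for BRCA1-null cells (AKR1B1, 0.0171, and AKR1C3, 0.0292), and ALDH1A2 passed between lines in entinostat (0.0495). The block changed no other call of a member. Deviations of same-numbered libraries correlated at 0.0523 to 0.287 over the 6 pairs of groups, all positive and 4 of them over 0.1, and at 0.287 and 0.1999 between control and entinostat within BRCA1+ and BRCA1-null cells. Since not every pair was over 0.1 and no label ties the numbers to a shared culture or day, the numbers were not taken to pair the libraries. Over all genes the block raised the entinostat calls from 2505 to 4319 and from 1906 to 3641. They ranged from 679 to 2414 and from 512 to 1595 with 1 library omitted, and were 693 in BRCA1-null cells in a fit on the groups compared. Calls between lines in entinostat went from 6973 to 4529 without the second BRCA1+ entinostat library. The interaction had 0 calls, 9 by DESeq2 and 1 with the block. Of the log2 values of single members, 603 stayed on their side, 11 no longer passed, 7 newly passed and 24 changed sign, none of the latter called in any setting. Entinostat in BRCA1+ cells gave 0.0152 for ALDH1A3 and 0.0375 for NQO1 with upper-quartile factors and 0.0134 for NQO1 with the stricter filter. With 1 library omitted the ranges were -0.281 to 2.36 for ALDH1A1 between lines in DMSO, -0.0997 to 0.0336 for ALDH1A3, -1.37 to 1.06 for ALDH3A1 and -0.0311 to 0.0126 for NQO1 with entinostat in BRCA1+ cells, and -0.0629 to 0.803 for AKR1C1 and -0.271 to 0.123 for ALDH3A1 in BRCA1-null cells. The differences of response ranged from -0.0936 to 0.203 for AKR1B1, -0.579 to 0.307 for AKR1C3, -0.796 to 1.84 for ALDH1A1, -0.107 to 0.0329 for ALDH1A3 and -1.12 to 1.32 for ALDH3A1. The cause was not tested. No value was taken where a group was left at 0 counts (AKR1C1 without the second BRCA1+ control library, ALDH1A1 without the second BRCA1+ entinostat library). The depth of about 3 counts per library at the floor limits AKR1B10, AKR1C1, AKR1C2 and ALDH1A1. ALDH1A2 was also low in BRCA1-null control libraries, with 13 and 7 counts.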
